A study of Homo sapiens with 6 samples.

Results

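The genes described here are the long non-coding RNA genes detected in an expression study of Capan-1 cells, a long-established line from a human pancreatic carcinoma. They were chosen by symbol: genes starting with LINC or SNHG, genes ending with -AS1, -AS2 or -IT1, and genes starting with MIR and ending with HG. A gene was kept if at least 1 of its probe sets reached a log2 level of 4 in at least 3 of the 6 samples. The array held 1673 genes with such a symbol, and 285 of them passed, among 11658 genes of any kind that did. A further 1388 stayed under the filter. The share that passed was 17% of the genes with such a symbol, against 59% of all genes. Because the filter used measured levels, a member that passed through 1 group alone had to differ between the groups, and such members are given by their values with no test.

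The study compared 3 samples of p16-transfected cells with 3 mock-transfected samples, and each group has samples named V1, V2 and V3. For the p16 cells, the complete human p16INK4a cDNA was placed behind the cytomegalovirus promoter of the vector pRC/CMV, which carries neomycin resistance. The labels' protocols give growth of the line in medium with 15% serum, and selection in hygromycin (0.1 mg/ml) together with G418 (1 mg/ml). Each sample has 1 array of the type Affymetrix HG-U133 Plus 2.0, hybridised with biotin-labelled cRNA from 300 ng of total RNA. The labels do not say whether a group holds 1 clone or several, or whether its samples are separate cultures. All p-values therefore rest on the spread among these samples, which may be technical. The number of arrays limits the precision.

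Long non-coding RNAs are transcripts without a long protein-coding reading frame, many of them spliced and polyadenylated like messenger RNAs. The classes here differ in genomic position. SNHG genes carry small nucleolar RNAs in their introns and MIR host genes carry microRNAs, so that splicing or processing of the host transcript releases the small RNA. Antisense genes are transcribed from the strand opposite a named gene and often share its start region. Genes ending with -IT1 lie in an intron of the named gene, and LINC genes lie between protein-coding genes. The probe sets measure the long host transcripts, not the small RNAs released from them, and the strand a probe set reports rests here on the platform annotation.

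The labels were checked on CDKN2A, which encodes p16. Of its 3 probe sets, 1 read 2.03, 2.03 and 2.02 in mock V1 to V3 and 11.92, 11.96 and 11.88 in p16 V1 to V3. The brightest read 5.61, 6.43 and 6.01 in mock and 12.12, 13.01 and 12.67 in p16 samples, and the last stayed under 4 in all 6 samples, at 3.06 to 3.35. Genes beside CDKN2A on 9p21, which a p16 cDNA does not carry, showed the same split: MTAP, the methylthioadenosine salvage enzyme, read 2.07, 2.07 and 2.06 in mock and 11.35, 10.77 and 11.05 in p16 samples. Of 15 genes of the region listed, 11 passed the filter and 10 of those were higher in p16 samples. CDKN2A itself is counted in each of these numbers. The others are genes that the cDNA does not carry, and the groups differ at most of those that passed. That both groups come from the same line rests on the labels and was not tested, so each difference below is between the samples labelled p16 and mock, and the part of the transfected p16 in it cannot be told apart from other differences between these cells. All 9 epithelial and duct markers passed the filter and 7 of them were lower in p16 samples, with CEACAM5 and CEACAM6 under 4 there. The leukocyte and endothelial markers on the array, 4 of each, were under 4 throughout. Of 5 fibroblast markers 3 passed, and LUM, a matrix proteoglycan, read 2.72 in the mock mean and 8.92 in the p16 mean, while COL1A1 differed by −0.13 (adjusted p = 0.75 by limma). The part of these differences in the results below was not tested.

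The microRNAs that the host genes carry are shown here because the results turn on which hosts were on in which group. RefSeq (GRCh38.p14) places 19 hairpins inside the 11 MIR host genes that passed. Capitals mark the seed, bases 2 to 8, which pairs with target messenger RNAs. A selection follows, from 3 hosts detected in p16 samples alone, 2 hosts higher in p16 samples, and MIR210HG and MIRLET7BHG. Other mature microRNAs of these hosts are not shown. Both MIR100HG and MIRLET7BHG carry let-7a-5p.
hsa-let-7a-5p: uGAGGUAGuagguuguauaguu
hsa-let-7b-5p: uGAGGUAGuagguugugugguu
hsa-miR-100-5p: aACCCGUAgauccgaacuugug
hsa-miR-125b-5p: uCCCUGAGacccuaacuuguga
hsa-miR-31-5p: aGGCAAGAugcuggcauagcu
hsa-miR-924: aGAGUCUUgugaugucuugc
hsa-miR-210-3p: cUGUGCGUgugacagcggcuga
hsa-miR-570-3p: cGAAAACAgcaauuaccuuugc
hsa-miR-550a-3p: uGUCUUACucccucaggcacau
The let-7 seed GAGGUAG is the seed that the mature microRNAs of 2 different hosts share among these 11. MIR100HG was on in p16 samples and off in mock samples, while the mean of MIRLET7BHG was lower in p16 samples without passing the test, as given below. The mature microRNAs themselves were not measured.

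Across all 285 genes, levels were low and differences were common. The median level was 5.83 on the log2 scale, against 9.08 over all genes tested. With a threshold of 0.05 on the limma adjusted p, 49 were higher in p16 samples, 87 were lower and 149 were not called. That is 47.7% called, where 42.0% of all genes were called (19.5% higher, 22.5% lower). The median difference, p16 minus mock, was −0.29 for the members and −0.03 for all genes. Without the V1 sample of each group, 57 were higher and 112 lower, beside 58.9% of all genes. In a fit that also takes out the V number (the replicate block), 67 were higher and 127 lower, beside 32.4% and 35.5% of all genes (67.9% in all). All 136 members called without the block were among the 194 called with it, in the same direction.

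The members that the filter does not favour are the 195 at 4 or more in all 6 samples. Of these, 27 were higher in p16 samples, 43 were lower and 125 were not called, which is 35.9% called beside 36.2% of the 10282 genes of any kind at that level. By direction, 13.8% were higher and 22.1% lower, beside 17.5% and 18.6% of all such genes, whose median level was 9.45 against 6.62 for the members. With a mean from 6 to under 8 the shares lay closer in both directions. There 14.8% of the members were higher and 25.9% lower, beside 15.4% and 25.2% of all genes. In the other ranges they did not: from 4 to under 6 it was 7.04% and 18.3%, beside 7.26% and 13.8%. From 8 upward it was 23.3% and 20.9%, beside 19.3% and 17.4%. With the block, 43 were higher and 77 lower (61.5%, beside 31.9% higher and 32.8% lower, 64.7% in all), and without the V1 samples 33 and 66 (beside 54.8%). The groups did not overlap for 113 of the 195, beside 51.7% of all such genes. In 33 of the 195 the whole range over 6 samples was under 0.5, or 16.9% beside 8.07%. At a mean from 4 to under 6 that share was 39.4% of the members and 34.8% of all genes, and from 6 to under 8 it was 4.94% and 6.62%.

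Other members were off in 1 group and on in the other. In 22 members every mock sample lay under 4 and every p16 sample at or above it, or 7.72% beside 3.53% of all genes. In 33 members the reverse held, or 11.6% beside 4.43%. Among members with a mean level from 4 to under 6 the shares were 12.8% and 17.6%, and among all genes of that level they were 15.9% and 19.2%. The remaining 35 members were mixed, with samples of at least 1 group on both sides of 4.

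**Figure D1:**
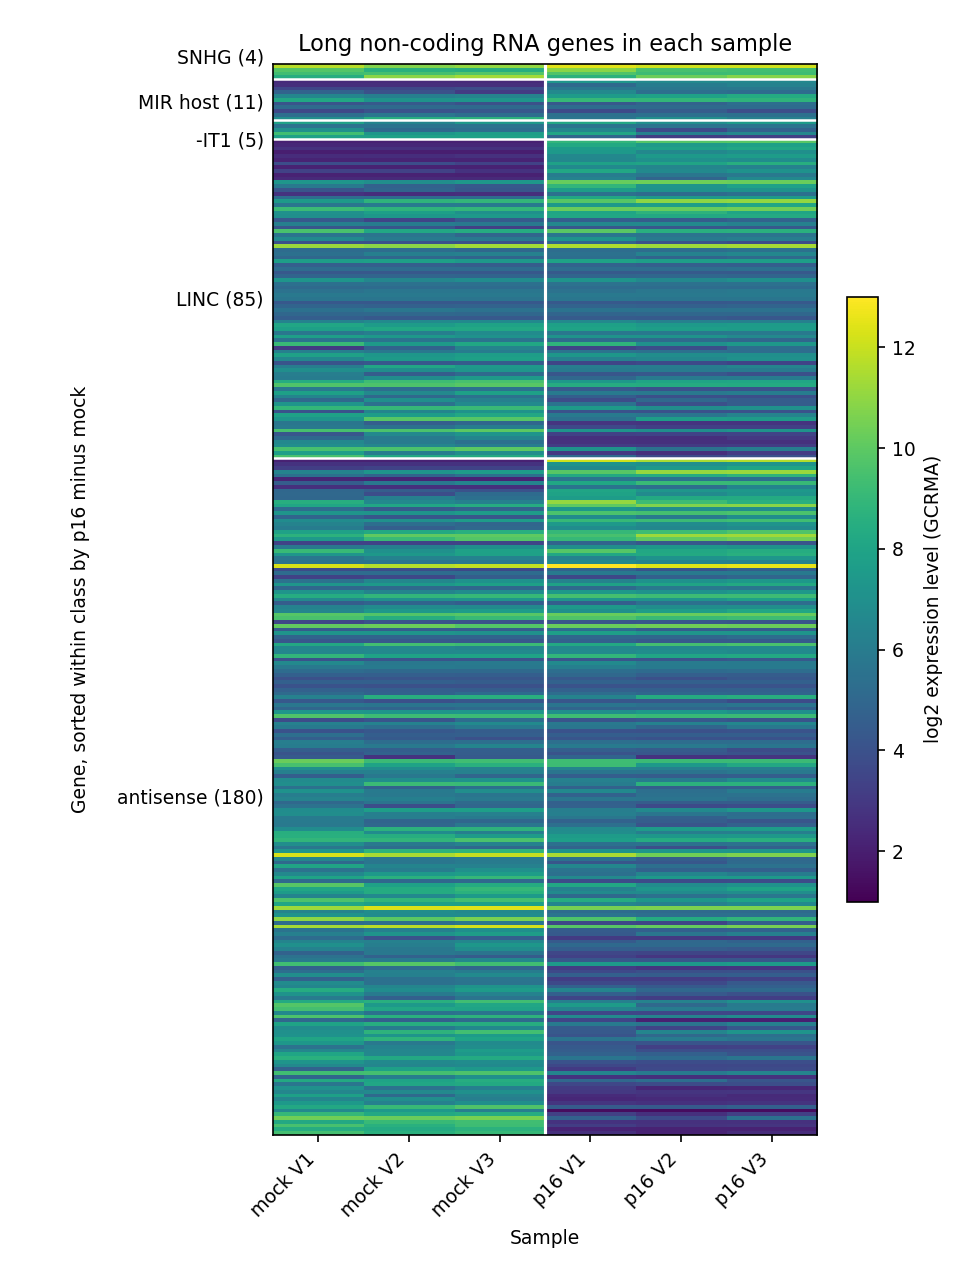
Heat map of the log2 expression level (GCRMA, colour scale from 1 to 13) of the 285 genes in 3 mock and 3 p16 samples, 1 row per gene, grouped by class and sorted within each class by p16 minus mock. The LINC block opens with genes dark in all mock samples and bright in all p16 samples, and the antisense block ends with many genes dark in p16 samples alone.

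Of the snoRNA hosts, 4 had a probe set of their own that passed, and all 4 were well expressed in every sample. SNHG32, a host of C/D box small nucleolar RNAs, was the brightest, at 11.73, 10.79 and 11.04 in mock V1 to V3 and 12.48, 12.13 and 12.14 in p16 V1 to V3. The groups did not overlap, and it rose by 1.06 (SE 0.29, 2.09-fold, limma adjusted p = 0.033). The call was lost without the filter on low values (adjusted p = 0.083) and without any 1 of mock V2, mock V3 or the 3 p16 samples (adjusted p from 0.081 to 0.11). SNHG17 read 9.78, 8.65 and 8.52 in mock and 10.89, 9.49 and 9.35 in p16 samples, a difference of 0.93 ± 0.54 (SE) that was not called (adjusted p = 0.24). In that gene V1 was the highest sample of both groups, each p16 sample lay above the mock sample of its number, and with the replicate block the adjusted p was 0.0033.

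SNHG19, the host of SNORD60, differed more between V numbers than between groups. It read 8.45, 10.92 and 11.34 in mock and 8.65, 10.30 and 10.84 in p16 samples, so V1 was low in both groups, and the groups overlapped (difference −0.31, SE 0.94, adjusted p = 0.83). SNHG33 read 9.30, 9.44 and 9.77 in mock and 9.70, 9.21 and 9.27 in p16 samples, with an overlap and a difference of −0.11 (SE 0.22, adjusted p = 0.73). A further 13 SNHG genes lie on probe sets shared with other genes and are given no value.

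Many snoRNA host genes start with a C followed by a run of pyrimidines, the start of transcripts whose translation follows growth signals. The 100 bases around the 4 starts, 50 on each side, are shown for that reason, from RefSeq (GRCh38.p14), with the pyrimidine run from the start base in capitals where it had at least 5 bases.
SNHG32, chr6:31834866-31834965, plus strand: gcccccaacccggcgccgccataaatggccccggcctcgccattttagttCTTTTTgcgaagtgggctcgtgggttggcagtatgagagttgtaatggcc
SNHG19, chr16:2155309-2155408, minus strand: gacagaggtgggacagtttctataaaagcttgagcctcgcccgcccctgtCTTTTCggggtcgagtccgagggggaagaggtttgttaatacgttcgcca
SNHG17, chr20:38435279-38435378, minus strand: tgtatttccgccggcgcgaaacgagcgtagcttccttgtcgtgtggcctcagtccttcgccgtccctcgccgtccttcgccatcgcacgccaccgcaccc
SNHG33, chr3:183447558-183447657, plus strand: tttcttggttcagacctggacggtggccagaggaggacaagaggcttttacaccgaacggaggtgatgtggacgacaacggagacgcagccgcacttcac
SNHG32 and SNHG19 had a run of 6 at the annotated start, and SNHG17 and SNHG33 did not. A start of this kind was found in 4.04% of the 27305 genes with a promoter window. Of the pair with the run, SNHG32 was called and SNHG19 was not.

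The proteins that assemble on small nucleolar RNAs were given beside the hosts, from a fixed list. Of 10 on the array all 10 passed, 5 were higher in p16 samples and none was lower. FBL, the methyltransferase of box C/D particles, rose by 1.27 (adjusted p = 0.0040), and GAR1 and NAF1, which serve box H/ACA particles, rose by 1.75 and 2.05 (adjusted p = 0.026 and 0.030). NOP58 and SNU13, further core proteins of box C/D particles, differed by −0.33 and 0.24 (adjusted p = 0.32 and 0.86). Spliced snoRNA host transcripts are often degraded by nonsense-mediated decay. Of 8 factors of that pathway that passed, SMG5, SMG8 and SMG9 rose by 1.71, 2.31 and 2.34 (adjusted p = 0.0023, 0.0085 and 0.0015), and the helicase UPF1 differed by −0.81 (adjusted p = 0.41; 0.0072 with the replicate block).

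Of the 11 microRNA hosts, 3 were on in p16 samples alone and none in mock samples alone. MIR100HG, host of miR-100, miR-125b-1 and let-7a-2, read 2.46, 2.47 and 2.45 in mock and 7.32, 6.64 and 6.55 in p16 samples, at least 7.15-fold higher. A bound of this kind sets the lower group at 4, since values under 4 are near the background. Both flanking genes that passed, SORL1 and UBASH3B, were lower in p16 samples, by −3.09 and −1.40 (adjusted p = 0.00013 and 0.0092). MIR31HG, host of miR-31 on 9p21, read 2.61, 2.61 and 2.60 in mock and 5.11, 6.06 and 6.31 in p16 samples, at least 3.54-fold higher, and lies next to MTAP, described above. MIR924HG read 3.55, 3.60 and 3.78 in mock and 5.77, 5.74 and 5.80 in p16 samples, at least 3.41-fold higher. Its neighbour PIK3C3, a lipid kinase of autophagy, rose by 2.74 (adjusted p = 0.00068).

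The 5 microRNA hosts at 4 or more in every sample moved less. MIR570HG read 6.52, 6.19 and 6.38 in mock and 7.57, 7.88 and 8.33 in p16 samples, with no overlap, and rose by 1.57 (SE 0.24, 2.96-fold, adjusted p = 0.0045). MIR550A3HG read 8.18, 7.18 and 7.26 in mock and 9.04, 8.94 and 8.83 in p16 samples, and rose by 1.39 (SE 0.30, 2.63-fold, adjusted p = 0.016). Its call was lost without the filter (adjusted p = 0.0505) and without mock V2, mock V3, p16 V2 or p16 V3 (adjusted p from 0.051 to 0.060). MIRLET7BHG, host of let-7a-3 and let-7b, read 6.93, 8.48 and 8.67 in mock and 5.71, 6.93 and 6.20 in p16 samples. The difference of −1.74 (SE 0.56) missed the threshold (adjusted p = 0.057), and was called with the block (adjusted p = 0.0056) and without mock V1 (adjusted p = 0.011). V1 was the lowest sample of both groups in that gene.

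MIR9-1HG and MIR1-1HG stayed flat, at 5.12 to 5.20 and at 5.35 to 5.76 over all 6 samples (adjusted p = 0.83 and 0.86). MIR210HG, host of the hypoxia-responsive miR-210, was mixed, at 4.82, 3.99 and 3.09 in mock and 6.67, 5.40 and 5.24 in p16 samples, so the groups did not overlap. MIR1915HG and MIR4435-2HG were mixed near 4, at 3.96 to 5.35 and at 3.59 to 4.55. Among 13 proteins of microRNA processing that passed, XPO5, which exports hairpins from the nucleus, rose by 1.90 (adjusted p = 0.00067), and DICER1 and AGO3 fell by 1.02 and 0.62 (adjusted p = 0.043 and 0.029). AGO2 had the largest difference of the 13, 2.13, and was not called (adjusted p = 0.082, and 0.00056 with the replicate block).

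**Figure D2:**
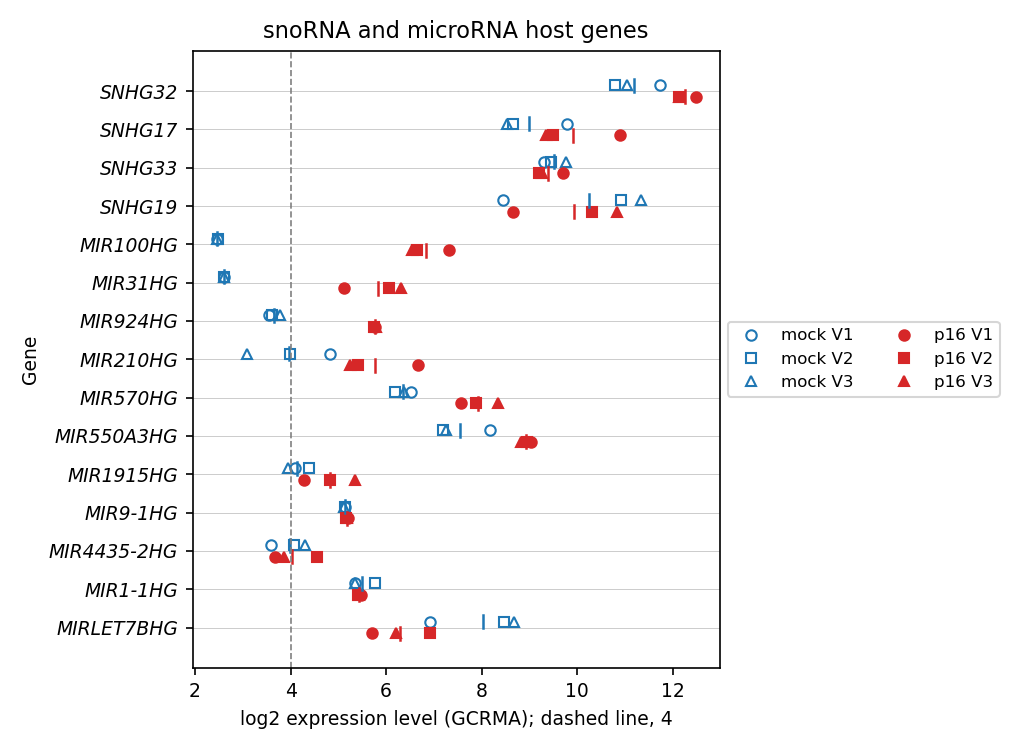
Log2 expression level (GCRMA) of the 4 snoRNA and 11 microRNA host genes in each sample, open blue symbols for mock and filled red symbols for p16, circles, squares and triangles for V1, V2 and V3, short bars for group means, dashed line at 4. MIR100HG, MIR31HG and MIR924HG lie left of the line in all mock samples and right of it in all p16 samples, while in SNHG19 the 2 circles lie apart from the other 4 symbols.

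The antisense genes were the largest class, with 180 members, and more of them were lower than higher in p16 samples. Their median difference was −0.60, with 23 higher, 67 lower and 90 not called. Among the 127 at 4 or more in all 6 samples the median was −0.38, with 16 higher and 34 lower. That is 12.6% higher and 26.8% lower, beside 17.5% and 18.6% of all genes on in all 6 samples, which are brighter. With a mean from 4 to under 6, 8.70% of these antisense genes were higher and 26.1% lower, beside 7.26% and 13.8% of all genes of that level. From 6 to under 8 it was 13.2% and 32.1%, beside 15.4% and 25.2%, and from 8 upward 17.9% and 17.9%, beside 19.3% and 17.4%. In 25 antisense genes all mock samples were at 4 or more and all p16 samples under it, or 13.9% beside 4.43% of all genes. In 7 the reverse held, or 3.89% beside 3.53%. With a mean from 4 to under 6 the shares were 22.5% and 4.49%, beside 19.2% and 15.9% of all genes of that level. Less the median of all genes of the same chromosome, the median difference of the antisense members with a known chromosome was −0.63.

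ZNF667-AS1 had the largest difference of all 285 genes. It read 2.15, 2.16 and 2.14 in mock and 12.13, 11.44 and 11.60 in p16 samples, at least 211-fold higher. It starts 529 bases from ZNF667, which encodes a zinc finger protein and is transcribed the other way. ZNF667 itself read 2.50, 2.51 and 2.49 in mock and 9.59, 9.95 and 9.94 in p16 samples, at least 56.7-fold higher, so both transcripts of the pair were off in every mock sample and on in every p16 sample. The window from 250 bases before to 50 bases after the start of ZNF667-AS1 is shown because most of it lies between the 2 starts (RefSeq, GRCh38.p14), with each CG in capitals.
ZNF667-AS1, chr19:56477624-56477923, plus strand: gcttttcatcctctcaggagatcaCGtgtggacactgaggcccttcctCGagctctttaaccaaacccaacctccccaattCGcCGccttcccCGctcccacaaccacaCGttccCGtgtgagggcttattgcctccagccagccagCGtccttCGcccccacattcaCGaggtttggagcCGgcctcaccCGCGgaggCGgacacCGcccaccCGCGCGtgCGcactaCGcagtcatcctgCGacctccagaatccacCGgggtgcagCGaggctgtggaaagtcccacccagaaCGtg
It held 24 CG pairs, where the median of all 27305 windows was 14. DNA methylation was not measured.

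HHIP-AS1 and its partner HHIP, which binds and inhibits hedgehog ligands, were both off in every mock sample and on in every p16 sample. HHIP-AS1 read 3.23, 3.39 and 3.40 in mock and 6.66, 7.49 and 8.07 in p16 samples, at least 10.6-fold higher. HHIP, whose start lies 137 bases away in the other direction, read 2.74, 2.75 and 2.72 in mock and 6.39, 5.59 and 4.46 in p16 samples, at least 2.79-fold higher. Within the p16 samples the order of the pair was opposite, with HHIP-AS1 highest and HHIP lowest in V3. ZFHX4-AS1, BBOX1-AS1 and LURAP1L-AS1 were on in p16 samples alone, at least 8.71-fold, 2.81-fold and 3.38-fold higher. ZFHX4 and BBOX1 stayed under the filter, and LURAP1L was on in all samples and differed by −0.35 (adjusted p = 0.35).

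Among antisense genes on in all samples, SERTAD4-AS1 rose most. It read 6.37, 7.24 and 7.62 in mock and 9.90, 11.10 and 11.20 in p16 samples, a rise of 3.65 (SE 0.49, 12.6-fold, adjusted p = 0.0026). Its partner SERTAD4 read 4.13, 4.81 and 3.77 in mock and 12.41, 11.90 and 12.25 in p16 samples. PXN-AS1 rose by 3.28 (SE 0.26, 9.70-fold, adjusted p = 0.00033), while PXN, which encodes the focal adhesion protein paxillin, differed by 0.62 (adjusted p = 0.29; 0.011 with the replicate block). SBF2-AS1 rose by 3.21 (SE 0.55, 9.27-fold, adjusted p = 0.0064) and SBF2 differed by 0.56 (adjusted p = 0.50; 0.038 with the block). SLC16A1-AS1, named for the lactate transporter gene SLC16A1, rose by 3.06 (SE 0.34, 8.31-fold, adjusted p = 0.0013). CARD8-AS1 was mixed, at 5.05, 3.84 and 5.22 in mock and 7.92, 6.72 and 7.22 in p16 samples, with no overlap.

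The largest falls were of genes lost from detection in p16 samples. AFAP1-AS1 read 9.43, 8.62 and 9.04 in mock and 2.67, 2.21 and 2.54 in p16 samples, at least 32.7-fold lower. AFAP1, which encodes an actin filament-associated protein, went the other way, at 4.79, 4.15 and 4.77 in mock and 7.49, 7.26 and 7.37 in p16 samples, a rise of 2.81 (SE 0.23, adjusted p = 0.00039). GNAS-AS1 read 9.52, 8.62 and 9.26 in mock and 3.20, 2.82 and 2.86 in p16 samples, at least 35.0-fold lower. GNAS, which encodes the stimulatory G protein alpha subunit and is imprinted in part, had a mock mean of 14.94 ± 0.38 (SD, n = 3) and a p16 mean of 15.03 ± 0.31 (adjusted p = 0.84).

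SSTR5-AS1 read 8.44, 8.31 and 8.70 in mock and 2.18, 2.16 and 2.15 in p16 samples, at least 22.4-fold lower, and SSTR5, a somatostatin receptor gene, stayed under the filter. KLRK1-AS1 was at least 29.2-fold lower, from 8.87 ± 0.57 (SD, n = 3) to 2.72 ± 0.02. NINJ2-AS1 was at least 23.4-fold lower, from 8.55 ± 0.40 to 3.08 ± 0.35, and NINJ2, an adhesion protein gene, read 6.33, 7.01 and 7.65 in mock and 2.10, 3.01 and 3.31 in p16 samples, at least 7.99-fold lower. UBAC2-AS1, VPS9D1-AS1 and LY6S-AS1 were at least 7.62-fold, 6.77-fold and 5.69-fold lower. UBAC2 and VPS9D1 differed by −0.45 and −0.71 (adjusted p = 0.17 and 0.18; 0.028 and 0.0055 with the replicate block).

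C1QTNF1-AS1 stayed above 4 and fell most among genes on in all samples. It read 8.23, 9.10 and 9.69 in mock and 4.45, 4.38 and 4.66 in p16 samples, a fall of 4.51 (SE 0.39, adjusted p = 0.00046). C1QTNF1, a secreted protein gene, fell by 2.99 (SE 0.29, adjusted p = 0.00075). CCDC18-AS1 was mixed, at 10.40, 10.26 and 10.55 in mock and 4.74, 3.72 and 5.48 in p16 samples, on the brighter of its 2 tested probe sets. Its other probe set differed by 0.31 the other way and was not called (adjusted p = 0.23), so its direction depends on the probe set. CCDC18 differed by −0.34 (adjusted p = 0.22).

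**Figure D3:**
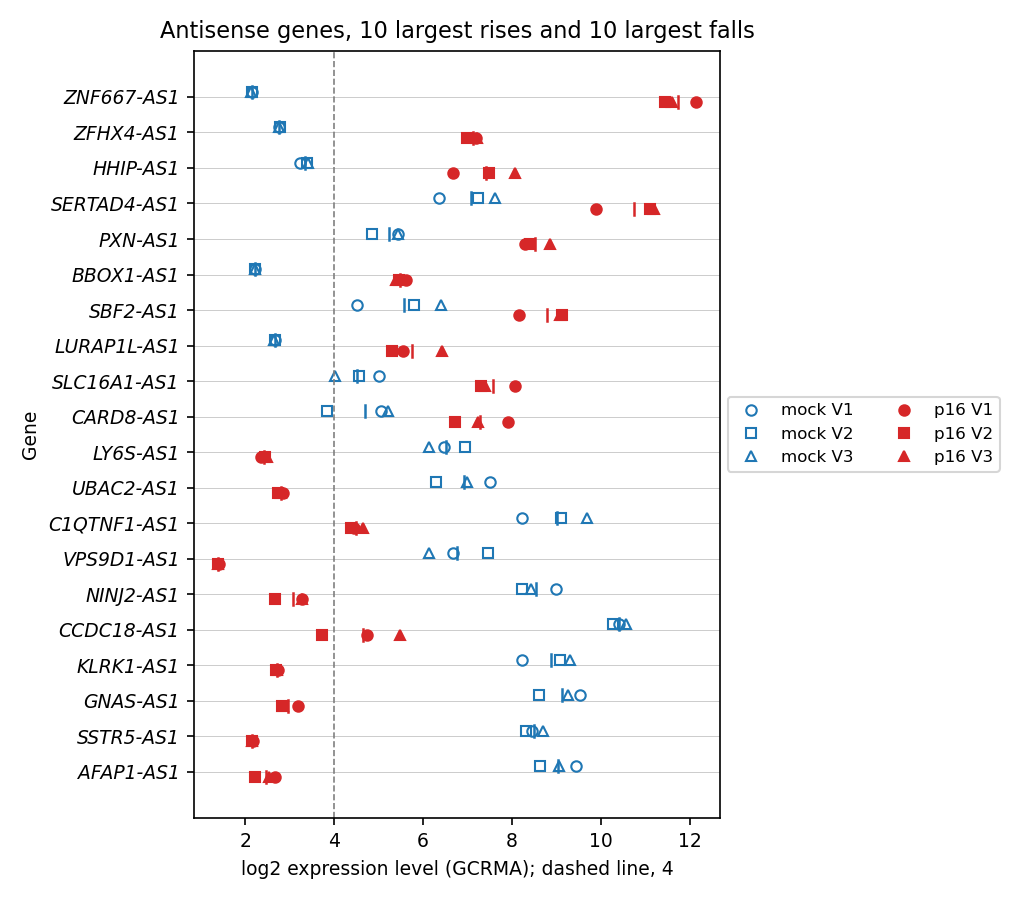
Log2 expression level (GCRMA) in each sample of 20 antisense genes, the 10 highest and the 10 lowest by fitted difference, open blue symbols for mock and filled red symbols for p16, circles, squares and triangles for V1, V2 and V3, short bars for group means, dashed line at 4. ZNF667-AS1 has the widest gap, from 2.15 to 11.72, and 8 of the 10 falling genes lie under the line in all p16 samples.

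The gene an antisense or intronic member is named for was compared with it in 139 pairs where both were tested. A further 29 partners stayed under the filter and 17 had no probe set of their own. The fitted differences had the same sign in 86 pairs (61.9%). Both genes were called higher in 7 pairs and lower in 11, the calls were opposite in 5, the member alone was called in 42, the partner alone in 30 and neither in 44. Across the 139 pairs, Pearson's r of the 2 differences was 0.38 and Spearman's rho 0.30. The counts over all 139 include genes that passed the filter through 1 group alone and so had to differ. Over the 88 pairs with both genes on in all 6 samples, r was 0.19 and rho 0.19, lower than with the pairs in which a gene was off in some samples. Of these 88, both genes were called higher in 3 and lower in 4. The member was higher and the partner lower in 2, and the reverse held in 1. The member alone was called in 20, the partner alone in 21 and neither in 37. Pairs share samples and are not independent replicates.

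In 33 pairs the genes were transcribed away from each other from starts at most 1000 bases apart, ZNF667-AS1 and HHIP-AS1 among them. Pairs on opposite strands that overlap at their starts were not counted here, however close the starts. Of these, 20 had both genes on in all 6 samples, with an r of 0.21, a rho of 0.26 and the same sign in 65.0%. The 47 other such pairs with known positions had an r of 0.03, a rho of 0.08 and the same sign in 57.4%. They include overlapping pairs with close starts, such as ZNF436-AS1 and ZNF436, 618 bases apart. The difference between these was not tested. The call of the member and of the partner were opposite for AFAP1-AS1, ZNF143-AS1, DEPDC1-AS1, EP300-AS1 and DSP-AS1, which are named after their values were seen. EP300-AS1 rose by 0.76 (adjusted p = 0.024) and EP300, which encodes a histone acetyltransferase, fell by 2.94 (adjusted p = 0.00056). ZNF143-AS1 fell by 2.07 (adjusted p = 0.033) and ZNF143, a zinc finger activator gene, rose by 2.04 (adjusted p = 0.0012). DEPDC1-AS1 read 5.23, 4.05 and 4.62 in mock samples and was off in p16 samples, at 3.07, 2.99 and 3.04. DEPDC1 rose by 2.16 (adjusted p = 0.00051). DSP-AS1 rose by 0.81 (adjusted p = 0.038) and DSP, which encodes the desmosome protein desmoplakin, fell by 1.13 (adjusted p = 0.035).

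**Figure D4:**
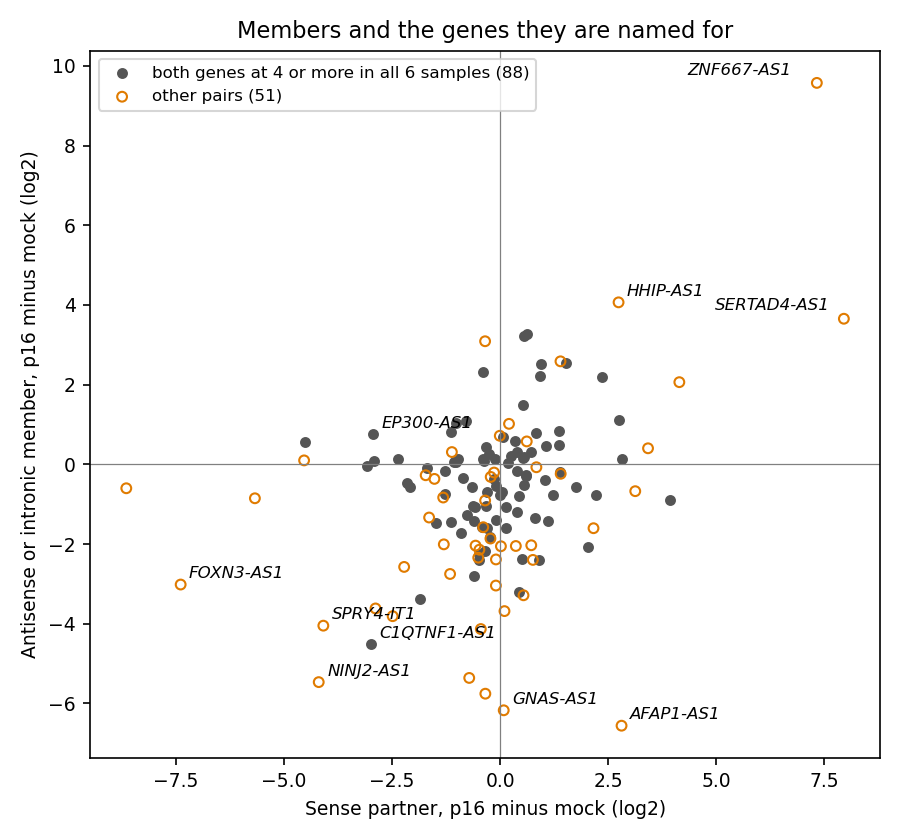
Difference p16 minus mock (log2) of 139 antisense or intronic members on the vertical axis against that of the gene each is named for on the horizontal axis, filled for the 88 pairs with both genes at 4 or more in all 6 samples and open for the other 51. ZNF667-AS1 and SERTAD4-AS1 lie far up on the right with their partners, AFAP1-AS1 lies low on the right, opposite its partner, and the filled points form a cloud around 0.

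All 5 intronic members are given, named after their values were seen. SPRY4-IT1, from an intron of SPRY4, an inhibitor of receptor tyrosine kinase signalling, was mixed. It read 7.88, 7.87 and 7.88 in mock and 4.99, 3.18 and 3.33 in p16 samples, with no overlap. SPRY4 itself read 8.14, 8.05 and 7.59 in mock and 4.40, 4.17 and 2.94 in p16 samples, so both genes were low in the p16 samples. GABPB1-IT1 differed by −1.18 (SE 0.72, adjusted p = 0.25; 0.0011 with the replicate block), with V1 the highest of both groups. NPTN-IT1 was mixed and overlapped between groups, with 5.11 and 5.32 in mock V2 and V3 against 6.49 in p16 V1. ALMS1-IT1 and ITPKB-IT1 differed by 0.30 and 0.05 (adjusted p = 0.69 and 0.81).

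The 85 LINC genes were split about evenly by direction. Their median difference was 0.03, with 20 higher, 19 lower and 46 not called. Of the 56 on in all 6 samples, 8 were higher, 9 lower and 39 not called (30.4%, beside 36.2% of all such genes), and in 17 the whole range was under 0.5. The 85 held 12 genes on in p16 samples alone (14.1%, beside 3.53% of all genes) and 8 on in mock samples alone (9.41%, beside 4.43%). LINC genes were dimmer, with a median level of 5.58 against 9.08 over all genes. Among all genes with a mean from 4 to under 6 the shares were 15.9% and 19.2%. The LINC shares are over all 85 genes whatever their level, so they are not matched to that range. Whether they exceed the shares of genes of equal level was not tested. All 10 LINC genes with the largest fitted rise were on in p16 samples alone.

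LINC02899 read 2.09, 2.11 and 2.10 in mock and 8.91, 9.80 and 9.90 in p16 samples, at least 46.4-fold higher. LINC00960, LINC01279 and LINC00470 were at least 17.6-fold, 14.8-fold and 14.5-fold higher, with p16 means of 8.13, 7.89 and 7.86. LINC00665 read 3.35, 3.36 and 2.77 in mock and 8.20, 6.70 and 7.11 in p16 samples, at least 10.1-fold higher. LINC00973, LINC00839, LINC02241, LINC00540 and LINC00518 were at least 9.44-fold, 8.13-fold, 7.05-fold, 5.57-fold and 3.68-fold higher. LINC00294, on in all samples and named after its values were seen, had the largest rise of the LINC genes with a test. It read 7.29, 6.94 and 7.41 in mock and 10.20, 10.34 and 10.27 in p16 samples, a rise of 3.06 (SE 0.18, 8.31-fold, adjusted p = 0.00012).

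On the falling side, LINC00472 was mixed, at 9.54, 8.25 and 8.30 in mock and 5.20, 3.70 and 4.03 in p16 samples, with no overlap. LINC01003 read 9.52, 9.62 and 9.98 in mock and 7.16, 5.53 and 6.09 in p16 samples, a fall of 3.44 (SE 0.44, adjusted p = 0.0021). LINC02381, which lies at the HOXC homeobox cluster, read 9.52, 9.62 and 9.97 in mock and 7.24, 6.99 and 7.22 in p16 samples, a fall of 2.56 (SE 0.19, adjusted p = 0.00027). LINC00342, LINC03014, LINC00899 and LINC01270 were off in p16 samples, at least 7.57-fold, 5.71-fold, 4.17-fold and 4.02-fold lower. LINC00339, LINC03026 and LINC01410 were at least 3.54-fold, 3.54-fold and 2.18-fold lower. LINC-PINT, known as a target of p53 and named after its values were seen, fell by 1.91 (SE 0.24, 3.76-fold, adjusted p = 0.0021).

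**Figure D5:**
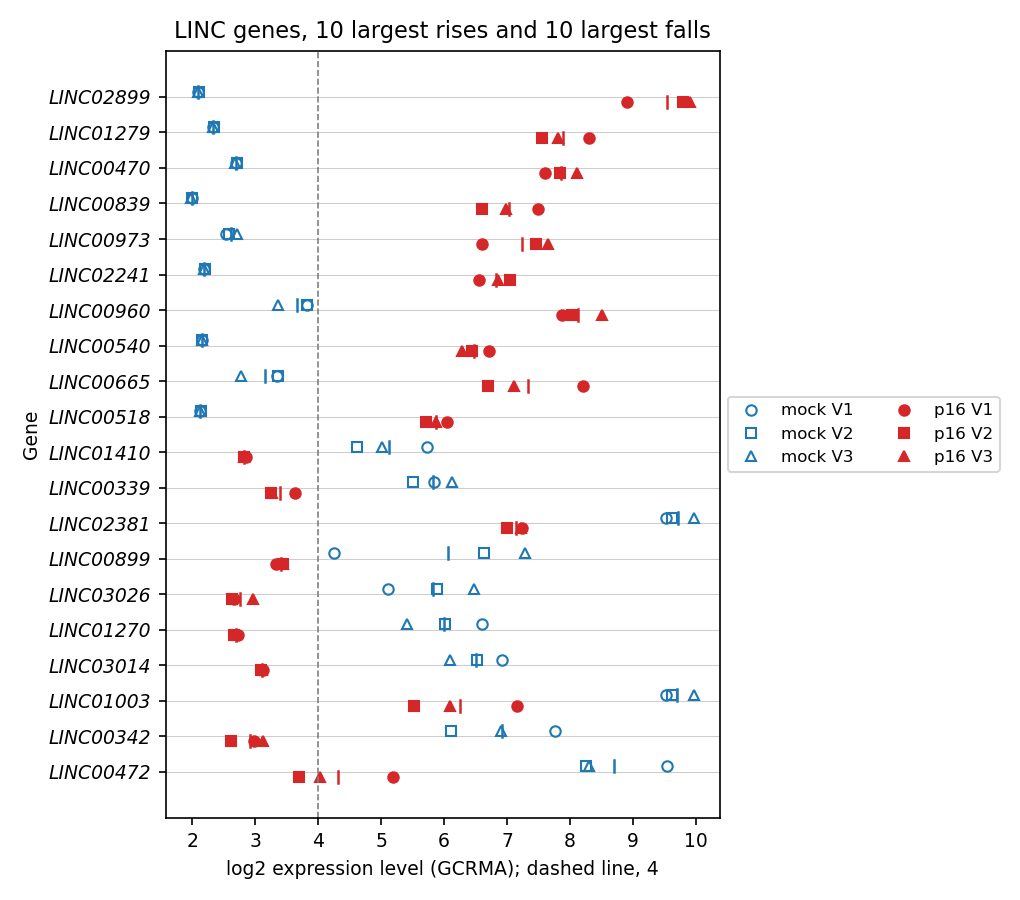
Log2 expression level (GCRMA) in each sample of 20 LINC genes, the 10 highest and the 10 lowest by fitted difference, open blue symbols for mock and filled red symbols for p16, circles, squares and triangles for V1, V2 and V3, short bars for group means, dashed line at 4. All 10 rising genes lie under the line in every mock sample, and LINC01003 and LINC02381 are the falling genes that stay above it in every p16 sample.

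The nearest protein-coding neighbours of the LINC genes, and protein-coding genes overlapping them, were set beside them. A neighbour shared by 2 LINC genes, such as ZBTB14, was counted for each. Of 93 neighbours counted in this way and tested, 22 were higher, 25 lower and 46 not called, and 56 had the sign of their LINC gene. For the LINC genes on in all 6 samples and called lower, 14 neighbours were tested, of which 4 were higher, 3 lower and 7 not called. For those called higher it was 8, of which 2 were higher, none lower and 6 not called. For LINC genes on in p16 samples alone, 11 nearest protein-coding neighbours were tested, and 7 were higher, none lower and 4 not called, beside 19.5% higher among all genes. For those on in mock samples alone, 9 were tested, and 6 were lower, none higher and 3 not called, beside 22.5% lower among all genes. CDH18 and CDH12 among the 7, and ANKRD36C among the 6, passed the filter through 1 group alone and so had to differ. LINC02241 lies between the cadherin genes CDH18 and CDH12, which were at least 9.89-fold and 28.2-fold higher in p16 samples. LINC00518 lies between TFAP2A, which encodes the activator AP-2 alpha and rose by 3.94 (adjusted p = 0.00023), and GCNT2, which rose by 1.13 (adjusted p = 0.038). LINC02381 lies between HOXC4 and SMUG1, which fell by 1.31 and 2.01 (adjusted p = 0.044 and 0.00081). LINC01270 lies beside CEBPB, a basic leucine zipper activator gene that fell by 1.87 (adjusted p = 0.0010). Other neighbours rose beside LINC genes that were lower: OGFRL1 beside LINC00472 by 2.48 (adjusted p = 0.0033), TANK and PSMD14 beside LINC01806 by 1.33 and 1.03 (adjusted p = 0.0499 and 0.0037), and ZBTB14 beside LINC00526 and LINC00667 by 0.96 (adjusted p = 0.0070).

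Some members lie close to each other. Of 16 pairs of members within 100000 bases, 9 had the same sign, 3 were both called in the same direction and 1 in opposite directions. On chromosome 18, DLGAP1-AS1 and DLGAP1-AS2 fell by 2.00 and 2.46 (adjusted p = 0.0010 and 0.0041), and LINC00526 and LINC00667 by 1.06 and 1.18 (adjusted p = 0.0063 and 0.039). On chromosome 22, PRR34-AS1 fell by 1.43 (adjusted p = 0.025) beside LINC00899, off in p16 samples, and MIRLET7BHG, which was not called. The protein-coding genes on the 2 sides of these differed in sign: WNT7B, a secreted signalling protein gene, fell by 1.85 (adjusted p = 0.048), and PPARA, a nuclear receptor gene, differed by 0.67 (adjusted p = 0.054). EMC3-AS1 and PRRT3-AS1 on chromosome 3 went opposite ways, by 2.54 and −1.32 (adjusted p = 0.0035 and 0.037). Those named in this paragraph other than by class rule were chosen after their values were seen.

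The share of called genes differed between chromosomes, and members shared their chromosome's direction in part. Over all genes, 48.6% on chromosome 4 were higher and 8.60% lower, while on chromosome 16 it was 3.36% and 34.6%. The median difference of the members had the sign of the median of all genes on 15 of 23 chromosomes. On chromosome 18 they ran apart, with a member median of −0.82 over 8 members and a gene median of 0.52. Whether a chromosome's copy number differs between the groups was not measured.

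On 9p21, CDKN2B-AS1 (ANRIL), the antisense gene that runs through CDKN2B and is described as a regulator of that locus, did not pass the filter. It read 2.19, 2.20 and 2.18 in mock and 2.25, 2.21 and 2.23 in p16 samples, near background in all 6. CDKN2B, the p15 gene it overlaps, read 2.35, 2.36 and 2.34 in mock and 8.70, 8.56 and 9.06 in p16 samples. MIR31HG is the host gene of the region that split with its neighbours.

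Among the most abundant members, named after their values were seen, FGD5-AS1 had the highest mean level of all 285, 12.32, and differed by 0.74 (SE 0.25, adjusted p = 0.067; 0.0043 with the replicate block). OIP5-AS1, a cytoplasmic RNA also called cyrano, fell by 1.58 (SE 0.29, 2.99-fold, adjusted p = 0.0085). EPB41L4A-AS1 rose by 2.33 (SE 0.27, 5.02-fold, adjusted p = 0.0015), from 8.11, 8.11 and 8.45 in mock to 10.04, 10.75 and 10.86 in p16 samples.

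Long non-coding RNA genes with symbols outside the rule were taken from a fixed list. Of 40 on the array 23 passed, 6 were higher and 7 lower. UCA1, described as abundant in bladder and other carcinomas, read 3.20, 4.53 and 4.12 in mock and 12.45, 13.22 and 13.23 in p16 samples. CRNDE read 11.20, 11.18 and 11.58 in mock and 3.26, 3.22 and 3.24 in p16 samples, at least 160-fold lower. HCP5, of the major histocompatibility region, read 10.50, 9.80 and 9.93 in mock and 5.21, 2.98 and 3.87 in p16 samples, and PCAT7 was at least 29.0-fold lower. HOTAIR, transcribed from the HOXC cluster that also holds LINC02381, was at least 2.80-fold lower, from 5.22, 5.93 and 5.31 in mock to 3.16, 3.07 and 3.14 in p16 samples. MALAT1, a nuclear RNA, read 15.10, 12.76 and 12.40 in mock and 14.17, 11.42 and 10.97 in p16 samples, with V1 highest in both groups (adjusted p = 0.44; 0.0025 with the replicate block).

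Some long non-coding RNAs are described as binding the polycomb complex PRC2, and MYC is known to act on several SNHG genes, so both were listed. Of 11 PRC2 genes, RBBP7, JARID2 and PHF1 rose by 1.02, 1.16 and 1.26 (adjusted p = 0.0059, 0.0042 and 0.0044), EED fell by 0.77 (adjusted p = 0.023), and the catalytic subunit EZH2 differed by −0.26 (adjusted p = 0.71). EZH1 differed by −0.92 and was not called (adjusted p = 0.37, and 0.0035 with the replicate block). Of 8 genes of the MYC network that passed, MLX fell by 1.16 (adjusted p = 0.0071) and MYC differed by 1.38 (adjusted p = 0.10; 0.00091 with the block).

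The V1 samples stood apart in both groups. Among members on in all 6 samples, V1 was the lowest sample of both groups in 25.6% and the highest of both in 29.2%, beside 28.1% and 41.3% of all genes at that level. SNHG19 was low in V1 of both groups, as was MIRLET7BHG, and SNHG17 and GABPB1-IT1 were high in V1 of both.

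Promoter windows were available for 225 of the 285 genes. The median CG count was 20, against 14 over all genes. It was 9.5 over the 14 members on in p16 samples alone and 25.0 over the 23 on in mock samples alone, with no test of that difference. These sets were not matched by class. Those on in mock samples alone are mostly antisense genes, and the median was 23 over all antisense windows and 13 over all LINC windows. Searched on both strands, the E-box CACGTG was found in 9.33% of the members' windows and 7.43% of all windows. An E2F word (TTTCCCGC, TTTGGCGC, TTTCGCGC or TTTGCCGC) was found in 4% and 3.33%. The word TATAAA was found in 5.33% and 12.0%, CCAAT in 39.1% and 35.7%, and GGGCGG in 57.3% and 44.6%. A match is a description of the sequence, not a measured site. The windows of all genes were taken whatever the level of the gene, while the members had passed a filter on level.

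At the edge of the filter, the third highest of the 6 values decided membership. The members nearest to 4 from above were LINC00847, LINC03048 and ZNF687-AS1, at 4.03, 4.03 and 4.03. Nearest from below were ZNF561-AS1, PITX1-AS1 and SOX9-AS1, at 3.97, 3.96 and 3.93.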

How the data were processed

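Total RNA of 3 p16-transfected and 3 mock-transfected Capan-1 samples was measured on HG-U133 Plus 2.0 arrays. The deposited values are log2 expression levels that the authors normalized with GCRMA, per the submitters' processing notes; its version is not given in the sources used here. GCRMA subtracts a background modelled on probe sequence, so many probe sets without signal lie near 2 to 4 and folds against them depend on that background. Nearly constant values also occur above 4, such as THY1 at 4.80 to 4.88 over the 6 samples. A gene called on is therefore one at 4 or more, and a flat one just above 4 may be background. Of 54675 probe sets, 62 controls were left out. GEO's platform annotation gave 1 gene for 41091, several for 1801 and none for 11721 of the rest. Probe sets with several genes were used for no gene, among them 130 that name a gene of the symbol rule. Column medians were 3.11 to 3.18.

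Probe sets at 4 or more in at least 3 samples (24406) were fitted with limma 3.58.1 in R 4.3.3 (lmFit, eBayes, two-sided, group only), with Benjamini-Hochberg adjustment over all of them and a threshold of 0.05. The brightest tested probe set by mean stands for a gene. In 47 members several probe sets were tested, and in 0 of them calls had opposite directions. The test was checked on simulated data. Fold bounds raise values under 4 to 4. Symbols were matched to RefSeq (GRCh38.p14) for 281 members. Deviations from the group means correlated between samples of the same V number (0.81, 0.75 and 0.67 over tested probe sets), so by the rule set for this the V numbers pair the samples, though the labels do not say what they stand for; V2 and V3 also correlated across groups (0.51 and 0.42). Alternatives to the filter, normalization, variance model, probe set and block were run. Leaving out the V1 samples together was added after seeing the data.

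The text names all SNHG and MIR host members, CDKN2B-AS1, the 10 largest rises and 10 largest falls of the LINC and antisense members each, and listed genes with the largest changes; other names are marked where they appear. Members and lists were chosen with earlier results of these data known. Other tools were Python 3.11.15 with pandas 2.3.3, matplotlib 3.10.9 and numpy 2.4.6.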

Additional observations from a re-analysis of the deposited data

How the results depend on the processing

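Counts of called genes moved by over 1.5 times under 3 alternatives. In the fit with a replicate block, 3780 genes were higher and 4136 lower, and of the members on in all 6 samples 43 were higher and 77 lower. Without the V1 samples of both groups, 66 of those members were lower. With the filter set to 4 or more in all 6 samples, 27 members were higher and 41 lower, since members off in 1 group then leave the test. Without 1 sample at a time, 40 to 50 members were higher and 69 to 92 lower; among members on in all 6 samples it was 18 to 27 and 30 to 47, and among all genes 1576 to 2370 and 1908 to 2579. Under that stricter filter CCDC18-AS1 changed sign, to 0.31, because its brighter probe set is left out. Over the named members and all alternatives, 975 values kept direction and side of the threshold (or moved by less than 1 SD), 39 moved, 11 lost their call and 8 gained one; 32 of the 39 came from raising values under 4 to 4, which shrinks differences of genes near background. Among named members on in all 6 samples, the block changed the calls of SNHG17, MIRLET7BHG, GABPB1-IT1 and FGD5-AS1, each of which gained one. It also gave a call to MIR210HG, NPTN-IT1 and ZNF687-AS1, which were under 4 in some samples and for which no test is given. Current symbols changed no member. Signal near background limits the members more than most genes: levels under 4 have no order.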
